A study of Mus musculus with 2 samples.

Results

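The nucleolar ribosome biogenesis genes and Myc are a list of 37 genes: Myc and 36 genes whose products make or process ribosomal RNA or assemble the ribosomal subunits. They were matched by gene symbol, and all 37 were found among the 32285 genes of the deposited count tables. The list was proposed with earlier results of these files known, so its own ratios between the libraries are given as a description.

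Single spleen cells were profiled by 3' droplet sequencing, where a molecular barcode (UMI) marks every captured transcript. The groups were splenocytes of wild-type mice (1 library) and of age-matched mice with a knock-in of M694I in Mefv, the gene of the inflammasome sensor pyrin (1 library). The age itself, the strain, the sex and the number of mice pooled were not given in the sources used here. Each genotype has 1 library, so nothing was replicated or tested, each value compares these libraries, and all intervals are 95% intervals for counting error only. They take UMIs as independent, and a lower level in a class cannot be told apart between fewer cells with the transcript and less transcript per cell.

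Ribosome production begins in the nucleolus, where RNA polymerase I copies the ribosomal RNA genes. Small nucleolar ribonucleoproteins (snoRNPs) then modify the RNA, box C/D particles by methylation and box H/ACA particles by pseudouridylation, while other factors cut it and build the small and the large subunit. The transcription factor Myc raises transcription of many of these genes when lymphocytes are activated, and binds the E-box, whose core letters are CACGTG.

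After filtering, 9493 wild-type cells with a median of 2528 UMIs and 8333 knock-in cells with a median of 2013 UMIs remained. Marker genes placed 6379 and 5433 of them in the B cell class and 1813 and 1691 in the T cell class, wild-type first. The B markers summed to 7038 and 7541 CPM (UMIs of a gene scaled to a common class total) in the B class, where the T markers summed to 19.2 and 18.3 CPM. Erythroid markers, wild-type first, summed to 102 and 253 CPM there, to 23.7 and 455 CPM in follicular B cells, to 113 and 7.39 CPM in T cells and to 38.4 and 1896 CPM in mononuclear phagocytes; their part in the results was not tested. Other values differed between the libraries. In B cells the nuclear RNA Malat1 was at 30766 and 19944 CPM (log2 ratio of knock-in over wild-type -0.63) and mitochondrial transcripts at 52433 and 43652 CPM (-0.26); both were lower in the knock-in library in all 13 separate classes described below. Of 17 measured stress and dissociation genes, 7 were higher and 0 lower in knock-in B cells, led by Fos at 204 and 376 CPM. The part of these differences in the values below was not tested.

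The RefSeq promoter table (GRCm38.p6, windows of 300 bases from 250 before the start to 50 after it) held 31 of the 37 members. Myc, Npm1, Fbl, Bop1, Rrp12 and Rrs1 were not matched. An E-box (CACGTG, the same on both strands) occurred in 7 of the 31 (22.6%), against 8.09% of 27025 genes. These are all genes of the promoter table, whether or not measured in these cells. The members were not compared with measured genes alone, so the excess cannot be called particular to this list. The 7 windows are shown because this motif is the one bound by Myc, with the motif in capitals, on the strand of the gene and, for 6 of them, 30 bases long.
Nop2, chr6:125131811-125131840: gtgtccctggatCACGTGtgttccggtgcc
Ltv1, chr10:13193092-13193121: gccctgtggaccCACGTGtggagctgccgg
Pes1, chr11:3963965-3963994: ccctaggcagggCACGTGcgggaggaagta
Mybbp1a, chr11:72441355-72441376: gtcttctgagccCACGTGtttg
Tsr1, chr11:74898092-74898121: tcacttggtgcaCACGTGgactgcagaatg
Nle1, chr11:82908355-82908384: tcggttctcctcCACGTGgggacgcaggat
Wdr43, chr17:71616220-71616249: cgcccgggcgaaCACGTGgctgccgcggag
Ltv1 and Nle1 lie on the minus strand and the other 5 on the plus strand. The motif began 60 bases before the start in Nop2 and between 2 and 40 bases after it in the other 6.

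The ETS motif (CCGGAAG or CTTCCGG) occurred in 12 of the 31 member promoters (38.7%), against 9.93% of all genes of the promoter table. The GC box (GGGCGG or CCGCCC) occurred in 22 of 31 (71%), against 38.2%. The motifs were searched separately, so windows may hold more than 1. Of the 12 matched members that were lower in knock-in B cells, 3 held the E-box, and of the other 19 members 4 did. Upstream sequences follow for Ddx21 and Ncl, chosen after their values were seen as members with a large difference and many UMIs, with GC boxes in capitals.
Ddx21, chr10:62602299-62602548, minus strand: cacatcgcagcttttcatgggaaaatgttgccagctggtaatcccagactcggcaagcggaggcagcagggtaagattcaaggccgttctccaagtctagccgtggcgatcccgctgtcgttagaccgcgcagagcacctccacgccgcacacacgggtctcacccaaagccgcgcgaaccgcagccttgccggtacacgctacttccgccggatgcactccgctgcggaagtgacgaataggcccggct
Ncl, chr1:86359456-86359705, minus strand: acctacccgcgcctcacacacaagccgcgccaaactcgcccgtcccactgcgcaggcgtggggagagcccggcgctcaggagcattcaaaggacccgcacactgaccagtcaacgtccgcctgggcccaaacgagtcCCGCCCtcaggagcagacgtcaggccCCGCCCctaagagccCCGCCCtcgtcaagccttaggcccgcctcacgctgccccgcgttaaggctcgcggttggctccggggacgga
Ncl held 3 GC boxes in these 250 bases and Ddx21 held 0; the GC box counted for Ddx21 lies after its start.

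In B cells a part of the list was lower in the knock-in library and no member was higher. A gene was called measured in a class with a mean of at least 10 CPM and at least 20 UMIs over both libraries, and lower or higher at a log2 ratio of 0.32 in size, a threshold chosen for this description. Of the 37 members 36 were measured in B cells, 13 were lower and 0 higher in the knock-in library, and 23 lay between. Over all 6827 genes measured there, 18.4% were lower and 13.4% higher, with a median log2 ratio of -0.04 against -0.21 for the members. In all kept cells 12 of 36 members were lower and 0 higher, where 22.9% of all genes were lower and 12.5% higher. The members nearest the threshold were Nop58 at -0.32 and Gnl3 at -0.33 inside it, and Pes1 at -0.31 and Noc2l at -0.30 outside it.

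Myc (chr15:61985391-61990374, plus strand, GRCm38) had 2312 UMIs in wild-type and 1842 in knock-in B cells. These were 126 (121 to 131) and 147 (140 to 154) CPM, a log2 ratio of 0.22 (0.13 to 0.31). Myc was the highest of the measured members by ratio in this class, and its value stayed under the threshold. It was 0.09 with a mitochondrial limit of 5%, where Bysl was at 0.30, and 0.32 when each cell was thinned to 1000 UMIs, where Ppan was at 0.34, so its rank was lost under both.

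The subunits of RNA polymerase I, which makes the precursor of most ribosomal RNA, had unlike ratios. Polr1a (chr6:71909053-71984935), its largest subunit, had 472 and 181 UMIs in B cells, or 25.7 and 14.4 CPM. Its log2 ratio of -0.83 (-1.09 to -0.58) was the lowest of the measured members. Polr1c, a subunit shared with RNA polymerase III, was at 31.0 and 31.5 CPM (0.02, -0.16 to 0.21). Polr1b, the second largest subunit, had 191 and 98 UMIs and missed the level needed to be counted as measured in B cells. The polymerase subunits thus ranged from the lowest ratio of the list to a value near 0. Their longest annotated transcripts had 9216 bases for Polr1a and 1314 for Polr1c, and the part of length was not tested.

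The box C/D particle and nucleolar scaffold group held the most abundant members. In B cells 6 of its 10 members were lower and 0 higher, against 18.4% and 13.4% of all genes. Ddx21 (chr10:62580251-62602281, minus strand), an RNA helicase of the nucleolus, had 3604 and 1400 UMIs in B cells. These were 196 and 112 CPM, a log2 ratio of -0.81 (-0.90 to -0.72). Ncl (nucleolin, chr1:86344719-86359400, minus strand), a major protein of the nucleolus, had 17391 and 8659 UMIs, or 948 and 691 CPM (-0.46, -0.49 to -0.42).
Npm1 (nucleophosmin, chr11:33152287-33163206, minus strand), a chaperone of comparable abundance, lay on the other side of 0, at 989.5 and 1141 CPM (0.21, 0.17 to 0.24). Mybbp1a, a nucleolar protein that binds Myb, was at 90.6 and 61.7 CPM (-0.55, -0.68 to -0.43). Nop58, a core protein of the box C/D particle, was at 178 and 142 CPM (-0.32, -0.41 to -0.24). The remaining lower members were Nolc1 (-0.35) and Gnl3 (-0.33), while Nop56 (-0.27), the RNA methyltransferase Nop2 (-0.22) and the rRNA methyltransferase fibrillarin, Fbl (0.03), lay between the thresholds.

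None of the 4 proteins of the box H/ACA particle passed the threshold in B cells, where 18.4% of all genes were lower and 13.4% higher. Nop10 was at 367 and 355 CPM (-0.05, -0.10 to 0.01). Nhp2 was at 135 and 146 CPM (0.11, 0.03 to 0.20). Gar1 was at 77.9 and 68.2 CPM (-0.19, -0.32 to -0.07), and the pseudouridine synthase Dkc1 had a ratio of -0.23. The box H/ACA median was -0.12, against -0.33 in the joint box C/D particle and nucleolar scaffold group, and the difference was not tested. The -0.33 is not a value of the box C/D particle alone, as that group also holds scaffold genes such as Ncl, Ddx21 and Gnl3. The particle proteins Nop58, Nop56 and Fbl were at -0.32, -0.27 and 0.03. The groups also differed in transcript length. The longest annotated transcripts had 1109 (Nop10), 1042 (Nhp2), 1271 (Gar1) and 2804 bases (Dkc1). Those of the lower members of the box C/D and scaffold group ran from 1947 (Gnl3) to 9507 bases (Nop58). The part of length in this contrast was not tested.

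Of 8 small subunit factors 4 were lower and 0 higher, against 18.4% and 13.4% of all genes measured in B cells. Wdr43 (chr17:71615895-71659031), a component of the early small subunit processome, had 2176 and 1036 UMIs in B cells, 119 and 82.7 CPM (-0.52, -0.63 to -0.41). Rrp12 was at 15.8 and 10.3 CPM, from 290 and 129 UMIs (-0.62, -0.93 to -0.31). Heatr1 (-0.44) and Tsr1 (-0.35) were also lower. Nop14 was at 56.3 and 50.8 CPM (-0.15, -0.29 to -0.01), and Ltv1, which acts in late maturation of the subunit, at 39.3 and 44.2 CPM (0.17, 0.01 to 0.33). Rrp9 (-0.17) and Bysl (0.17) had intervals that held 0. With cells thinned to 1000 UMIs Ltv1 turned to -0.10 and Bysl to -0.10.

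Of 11 large subunit factors 2 were lower, Noc3l at -0.49 and Rrp1b at -0.39, and 0 were higher. The share that was lower, 18.2%, was close to the 18.4% of all genes measured in B cells, of which 13.4% were higher. Ppan was at 68.0 and 77.5 CPM (0.19, 0.07 to 0.31) and Nip7 at 76.6 and 86.1 CPM (0.17, 0.05 to 0.29). Noc2l, which pairs with Noc3l, was at 59.8 and 48.6 CPM (-0.30, -0.45 to -0.16). Pes1 (-0.31), Nle1 (-0.13), Nop16 (0.01), Wdr12 (0.05), Bop1 (0.11) and Rrs1 (0.12) made up the group, so Pes1 and its complex partners Bop1 and Wdr12 lay on opposite sides of 0. The group's median was 0.01.

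**Figure D1:**
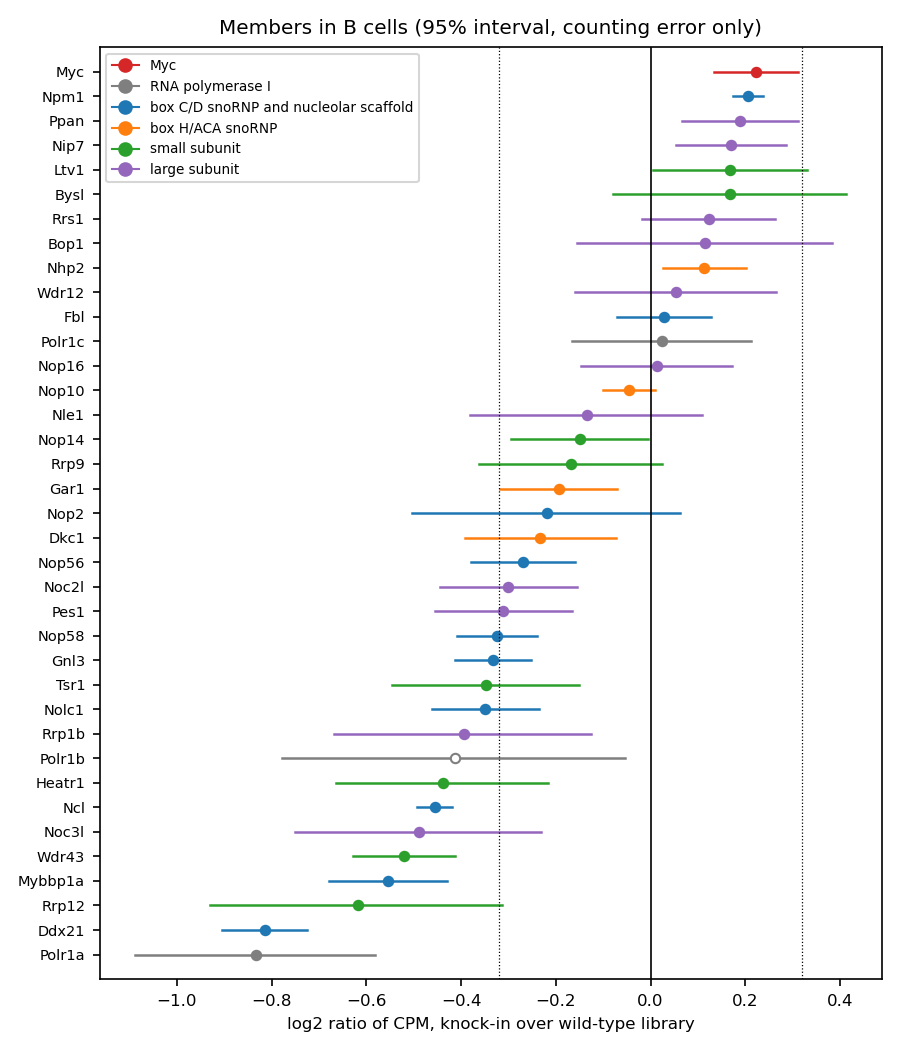
Log2 ratio of CPM, knock-in over wild-type, of each member in B cells, with the exact conditional binomial 95% interval (counting error only), coloured by role; dotted lines mark the threshold of 0.32 and the open circle is Polr1b, which was not measured by the rule. The points run from Polr1a at -0.83 to Myc at 0.22, and no member reached the threshold on the right.

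With the depth of the cells fixed, Ddx21 and Ncl were found in fewer knock-in B cells and Npm1 and Myc in more. For Npm1 and Myc the unthinned shares lay the other way. Each cell with at least 1000 UMIs was thinned to 1000 UMIs, which left 6329 wild-type and 5237 knock-in B cells and left out 50 and 196. Ddx21 was then found in 16.6% (15.7 to 17.5, exact Clopper-Pearson interval) and 9.62% (8.84 to 10.5) of B cells; unthinned shares were 36.7% and 20.04%. Ncl was found in 53.5% and 44.3%, and Npm1 in 54.4% and 57.2%. Unthinned shares were 79.7% and 64.7% for Ncl and 80.4% and 75.5% for Npm1. Myc was found in 9.78% (9.06 to 10.5) and 11.6% (10.8 to 12.5) of thinned B cells, and unthinned in 20.003% and 19.7%. As a level in other cells, Myc was found in 2.76% and 2.98% of thinned T cells, which were deeper, with medians of 2987 and 2421 UMIs against 2334 and 1802 in B cells. In thinned mononuclear phagocytes, the class with the least Myc per UMI, it was found in 0.909% (0.110 to 3.25) and 0.546% (0.0138 to 3.01), with median depths of 4554 and 3389 UMIs.

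Across the stages of B cells the level of Myc differed far more than between the libraries. Myc was at 319 and 386 CPM in activated, 180 and 145 CPM in marginal zone, 86.0 and 120 CPM in follicular, and 60.9 and 77.8 CPM in transitional cells, wild-type first. The order of these 4 stages was the same in both libraries. The log2 ratio of knock-in over wild-type was 0.48 (0.32 to 0.65) in follicular and 0.27 (0.12 to 0.42) in activated cells. It was -0.31 (-0.59 to -0.03) in marginal zone cells and 0.35 (-0.11 to 0.82) in transitional cells. B cells without a stage were at -0.13 (-0.33 to 0.07) and the few B-1 cells at -0.78 (-2.30 to 0.58). The difference between stages was not tested. In NK cells Myc had only 39 and 47 UMIs, of which 1 cell held 23.1% and 17.0%, so the ratio of 1.38 there rests on few cells.

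**Figure D2:**
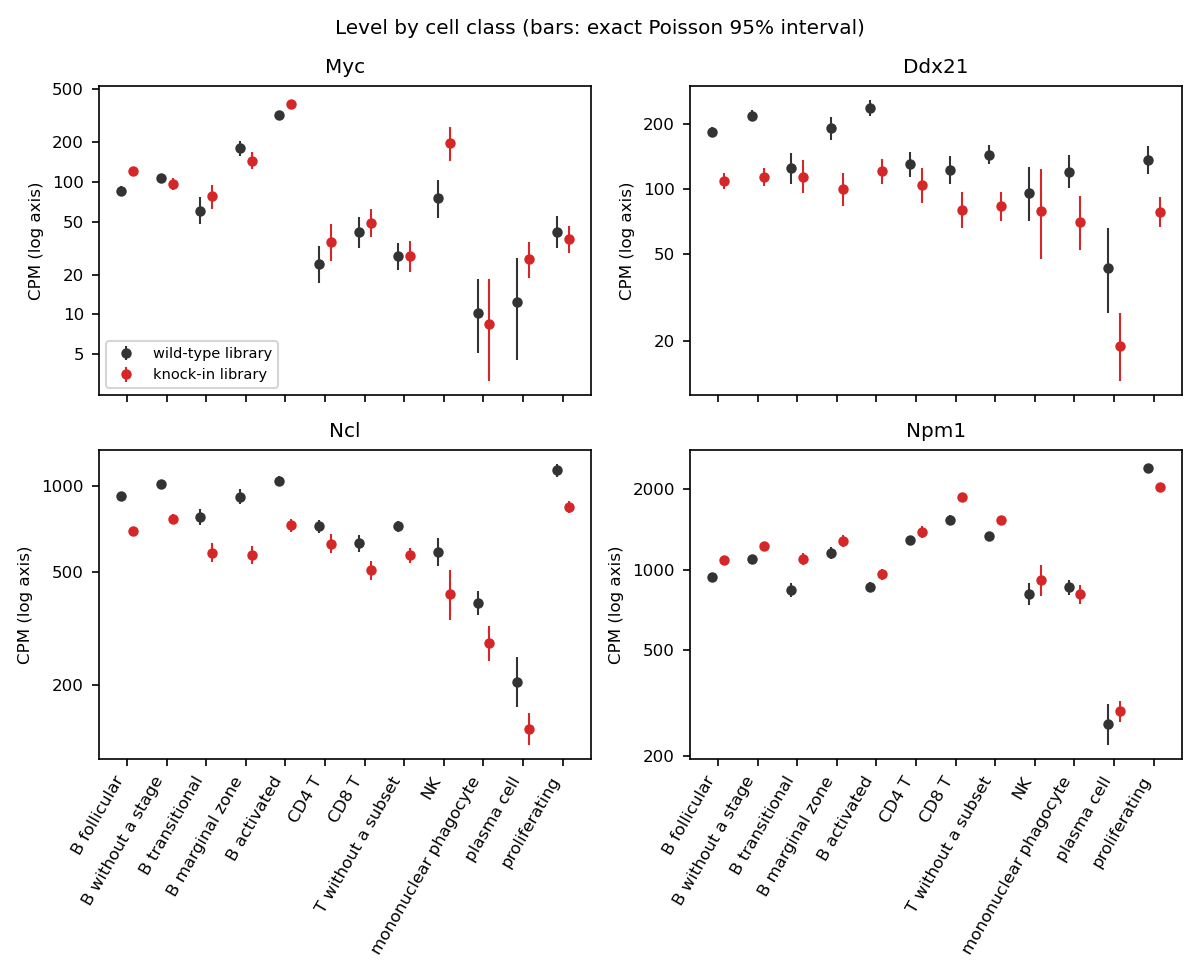
CPM (log axis) of Myc, Ddx21, Ncl and Npm1 in each cell class of the wild-type (black) and knock-in (red) library, with exact Poisson 95% intervals for counting error. Ddx21 and Ncl are lower in the knock-in library in each class drawn, Npm1 is higher in all but mononuclear phagocytes and proliferating cells, and Myc is highest in activated B cells.

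Activated B cells were gated on Mir155hg, Nfkbid, Irf4, Traf1, Cd83, Egr2, Egr3 and Batf, with 945 and 846 cells. Of 36 members measured there 19 were lower and 1 higher, against 25.5% lower and 20.1% higher over all genes, and the median was -0.36. Ddx21 was at 238 and 121 CPM (-0.97, -1.21 to -0.74) and Ncl at 1037 and 727 CPM (-0.51, -0.61 to -0.42). Nhp2 was the member that was higher, at 129 and 162 CPM (0.33, 0.09 to 0.56).
This result depended on how the class was drawn. With clusters named from the same markers the activated class had a median of 0.05, with 5 members lower and 11 higher. That class joined a cluster of 1195 and 559 cells to a cluster of 48 and 31 cells led by Ifit1, Ifit3 and Ifit3b. Its cells and their balance between the libraries thus differed from those of the gate, with 945 and 846 cells. Irf4, a gene of the gate, was itself lower in knock-in B cells, at 163 and 103 CPM (-0.66), while Cd83 and Batf, also in the gate, were higher (0.33 and 0.61).

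Marginal zone cells (319 and 355) held 20 of 36 members lower and 1 higher, against 23.5% lower and 23.5% higher over all genes, with a median of -0.35. Ddx21 was at 191 and 100.4 CPM (-0.93), Ncl at 917 and 571 CPM (-0.68) and Nop10 at 497 and 338 CPM (-0.55). In follicular cells (2630 and 1861) 10 of 36 were lower and 2 higher, Myc and Bysl, against 19.8% and 13.5%, with a median of -0.10. In transitional cells (521 and 570) 7 were lower and 7 higher of 36, against 27.9% and 21.1%. There Ddx21 was at 125 and 115 CPM (-0.13, -0.48 to 0.22), Npm1 at 838 and 1097 CPM (0.39, 0.27 to 0.51) and Ppan at 46.1 and 78.7 CPM (0.77, 0.27 to 1.28). B cells without a stage held 13 of 37 lower and 1 higher, against 19% and 15.8%. B-1 cells, with 78 and 56 cells, gave 13 lower and 3 higher of 23, against 30.3% and 28.3%.

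In T cells the list's median was 0.06, close to the 0.04 of all genes, with 6 of 34 members lower and 4 higher against 14.1% and 21.9%. Thinning to 1000 UMIs turned that median to -0.18, with 10 members lower. Some single members kept the direction seen in B cells. Ddx21 was at 135 and 88.0 CPM (-0.62, -0.80 to -0.45), Polr1a at 18.4 and 11.0 CPM (-0.75) and Wdr43 at 84.0 and 65.4 CPM (-0.36). Ppan was at 29.8 and 48.4 CPM (0.70, 0.40 to 0.99). Within T cells, CD4 cells (540 and 462) held 4 of 34 members lower and 8 higher, against 16.5% and 31.6% over all genes, and CD8 cells (365 and 415) 9 of 36 lower and 11 higher, against 22% and 24%. T cells without a subset held 8 of 34 lower and 3 higher, against 17.1% and 25.3%. NK cells (215 and 117) measured 17 members, 4 lower and 3 higher, against 33.5% and 21.5%. Mononuclear phagocytes (233 and 199) measured 28, with 7 lower and 4 higher, against 25.9% and 23.4%, and a median of -0.21, which turned to 0.03 with clusters named from the same markers.

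Of plasma cells (60 and 152) 19 members were measured, with 9 lower and 4 higher against 50.2% and 18.9% over all genes. In this class neutrophil markers summed to 15259 and 2144 CPM and monocyte markers to 2457 and 542 CPM, wild-type first, and their part in the result was not tested. In proliferating cells (89 and 151) 15 of 36 were lower and 2 higher, against 33.6% and 14.9%. There erythroid markers summed to 1009 and 11986 CPM, neutrophil markers to 292 and 6008, plasma cell markers to 1226 and 5294 and T markers to 1851 and 745 CPM, so the make-up of the class differed between the libraries, and its part in the result was not tested. Over 13 separate classes Ddx21, Ncl, Nop56, Wdr43 and Gnl3 were measured in all 13 and lay below 0 in each, and Npm1 lay above 0 in 11 of 13. These 6 genes were singled out after their values had been seen.

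**Figure D3:**
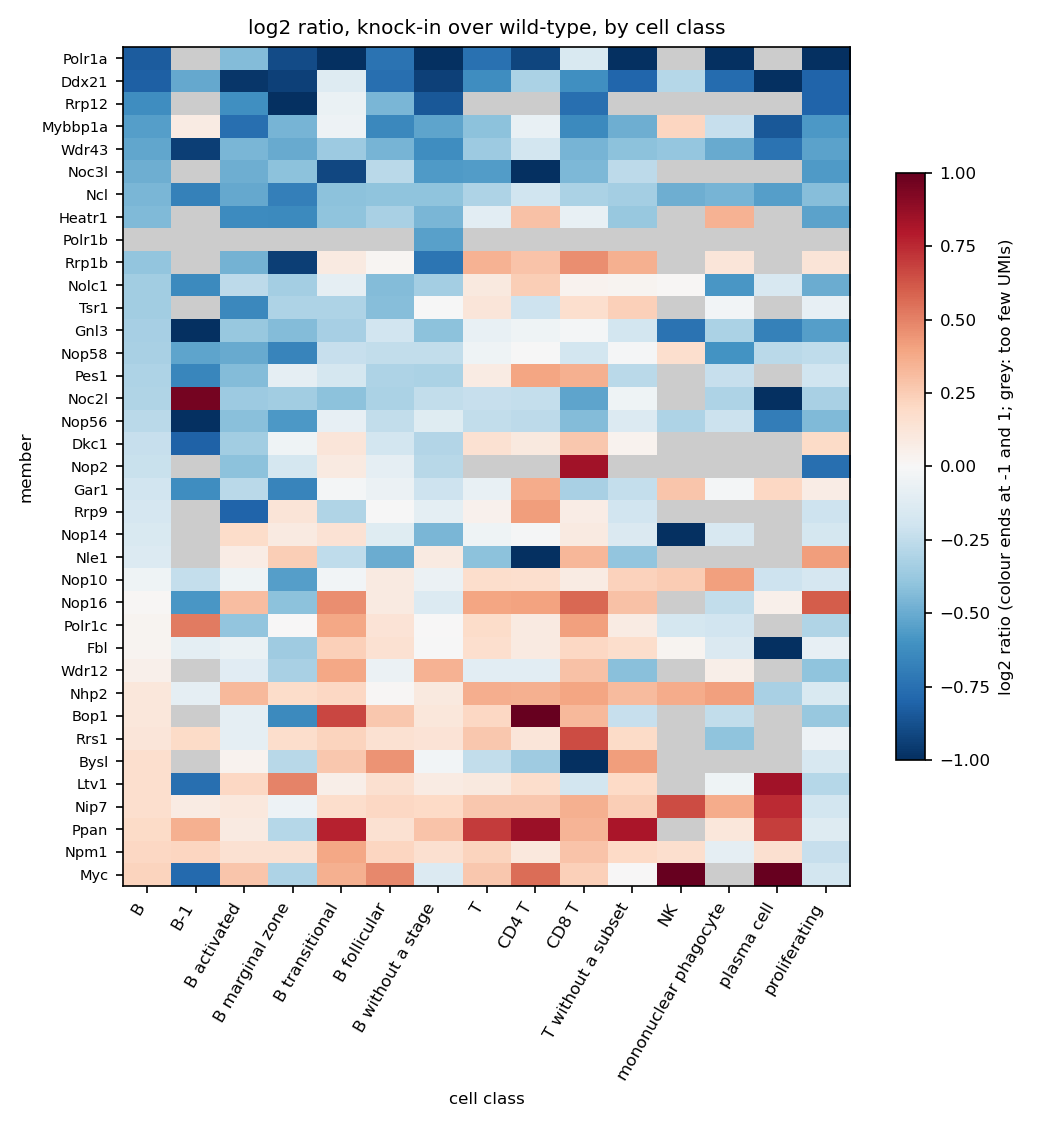
Log2 ratio, knock-in over wild-type, of each member (rows, ordered by the ratio in B cells) in each cell class (columns); blue is lower and red higher in the knock-in library, colours end at -1 and 1, and grey marks too few UMIs. Ddx21, Wdr43 and Ncl are blue in all 13 separate classes, and Npm1 is red in 11 of them. All classes come from the same 2 libraries.

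Between cell classes within a library, most members were lower in T, NK, plasma and mononuclear phagocyte classes than in B cells. The list may have been selected on its ratios between the libraries. Whether it was also chosen on contrasts between classes is not known, so these values too are given as a description. In T cells 25 of 36 members were lower than in B cells in the wild-type library (median log2 ratio of T over B -0.51) and 23 of 35 in the knock-in library (-0.35), where 35% and 29.2% of all genes were lower. Npm1 went the other way, with T over B at 0.47 (wild-type) and 0.48 (knock-in). In plasma cells all 34 members measured in wild-type and all 31 in knock-in cells were lower than in B cells (medians -2.20 and -2.37), where 71.3% and 82.1% of all genes were (medians -0.91 and -1.32). With cells thinned to 1000 UMIs the members' medians there were -0.972 and -1.721, but these rest on very few UMIs. Among 59 thinned wild-type plasma cells Ddx21 and Nop56 were found in 1 each, and Wdr43 and Polr1a in 0. A count of 0 was placed at a floor of 3 counts, above a member with 1 UMI. The thinned medians therefore cannot show an effect of depth or a difference between the libraries. The members' medians over B cells were -1.03 and -0.84 in NK cells and -0.86 and -0.93 in mononuclear phagocytes, wild-type first. The values of all genes are not set beside these medians, so the lower level there cannot be called particular to the members. Proliferating cells over B cells had 8 members lower and 7 higher in the wild-type library (32.3% and 38.4% of all genes), and 8 and 9 in the other (36.6% and 34.1%). The members' medians were -4.4e-05 and -0.12. With cells thinned to 1000 UMIs, which left 88 and 146 proliferating cells, the medians were -0.31 and -0.29. Within the B lineage, transitional over follicular cells gave 14 of 36 lower and 0 higher in wild-type cells (12.7% and 22.3%) and 8 lower and 1 higher in knock-in cells (13.7% and 21.7%).

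Activated over follicular B cells gave Myc a log2 ratio of 1.89 (1.74 to 2.04) in wild-type cells and 1.68 (1.52 to 1.85) in knock-in cells. Across the list the difference between these stages was smaller, with a median of 0.18 in the wild-type library. There 0 members were lower and 9 higher of 36 (10.6% and 11.8% over all genes). In the knock-in library the median was 0.01, with 4 lower and 4 higher (11.9% and 14.3%). Ddx21 was at 0.37 (0.23 to 0.51) and 0.15 (-0.09 to 0.38), and the difference between the libraries was not tested. This contrast was recomputed with thinning (list medians 0.17 and 0.02) but not with clusters, and a dependence on Myc was not tested.

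**Figure D4:**
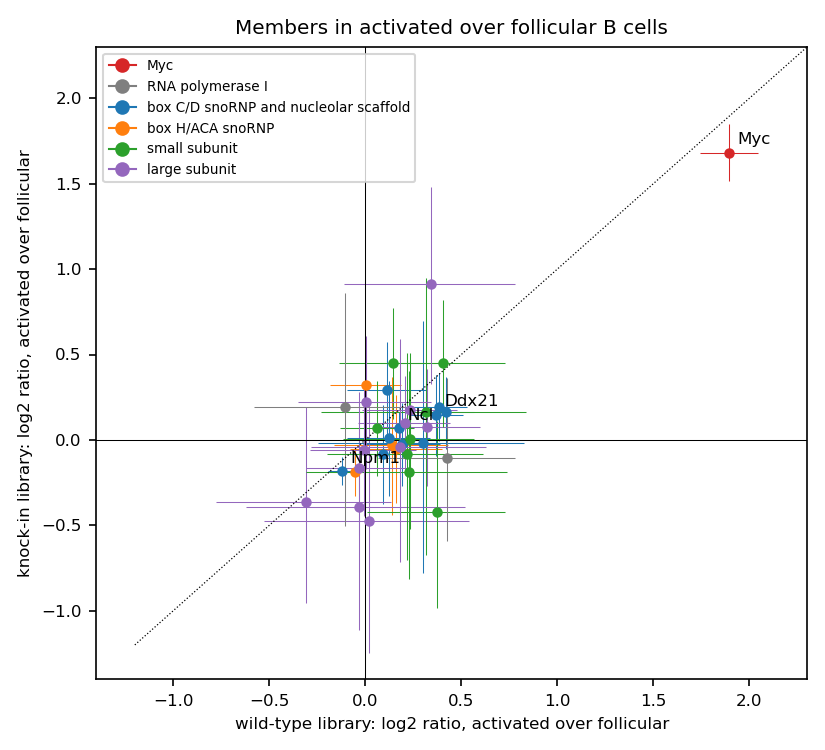
Log2 ratio of activated over follicular B cells for each member, in the wild-type (x axis) and the knock-in library (y axis), coloured by role, with 95% intervals for counting error and the line of equality dotted. Myc stands apart at 1.89 and 1.68, while Ddx21 lies at 0.37 and 0.15.

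The ratio in B cells went with the length of the transcript, in the members and in all genes. Across 36 members Spearman's rho between the log2 ratio and the longest annotated transcript (GENCODE M21) was -0.60, and across 6643 protein-coding genes it was -0.58; these are correlations across genes of the same 2 libraries. The genes were divided by length into 4 groups of equal size. In the shortest group the median was 0.22 for all genes and 0.02 for the 10 members. In the second it was 0.04 and -0.18 for 12 members. In the third it was -0.16 and -0.49 for 7 members, of which 6 were lower, against 24.4% of all genes. In the longest it was -0.25 and -0.44 for 7 members, of which 6 were lower, against 36.5%.
The members' median thus lay below that of all genes in each length group in B cells. The list was proposed with earlier results of these files known, so this cannot show a difference beyond length. Bysl and Wdr12 were the long members that were not lower. In T cells the same medians were 0.26 and 0.18, 0.13 and 0.09, -0.05 and -0.24, and -0.14 and -0.11, so the members lay above all genes in the longest group. The part of transcript length in the ratios was not tested beyond these values.

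**Figure D5:**
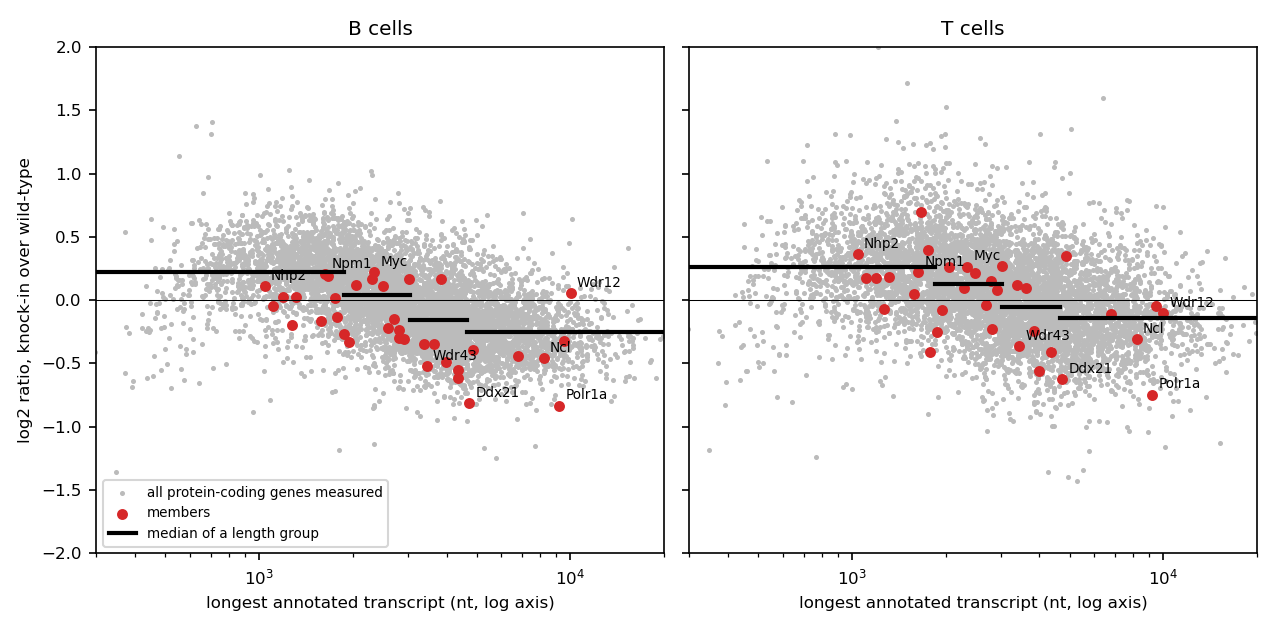
Log2 ratio, knock-in over wild-type, against the longest annotated transcript (log axis) in B cells (left) and T cells (right), for all protein-coding genes measured (grey) and the members (red); black bars are medians of the 4 length groups over all genes. Ratios fall with length in both panels, and Ddx21 and Polr1a lie below the bars; 8 and 14 genes, none of them members, lie outside the axes.

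Of the members, 8 hold small nucleolar RNA genes within them on the same strand. In B cells 5 of these 8 were lower (Wdr43, Ncl, Tsr1, Gnl3 and Nop58), and 8 of the 28 others. Over all 154 measured protein-coding genes that hold one, 30.5% were lower. Exons of Nop58, Ncl, Nop56, Ppan and Gnl3 overlap small RNA genes on the same strand, and their UMIs could not be told apart there.

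Lists related to the members are given for B cells beside the 18.4% of all genes that were lower and the 13.4% that were higher; differences between lists were not tested. Of 92 other ribosome biogenesis genes measured 14 were lower and 2 higher (median -0.06), led by Surf6 at 24.5 and 13.6 CPM (-0.85), Nol6 at 20.7 and 12.7 CPM (-0.70) and Pwp2 at 12.4 and 8.30 CPM (-0.58). The share that was lower, 15.2%, was under that of all genes. Of 39 growth genes outside the nucleolus 4 were lower and 9 higher (median 0.13), with the cyclin Ccnd2 at 138 and 94.6 CPM (-0.54), Phb at 29.5 and 42.4 CPM (0.52) and the cyclin-dependent kinase Cdk4 at 59.5 and 85.2 CPM (0.52).
Among 8 measured genes of the Myc network, Mga (-0.42) and Mnt (-0.32), which pair with the same partner as Myc, were lower and Mlx (0.50) was higher. Of 18 B cell activation genes 7 were lower and 3 higher, with Nr4a3 at 34.7 and 20.2 CPM (-0.78). Of 9 cell cycle genes Mcm2 was lower (-0.48), and Stmn1 (0.55) and Mcm5 (0.44) were higher. Cytosolic ribosomal protein genes, whose products the nucleolus assembles, summed to 313126 and 310382 CPM in B cells, a log2 ratio of -0.01.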

How the data were processed

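The authors deposited unnormalized UMI counts for each gene in each barcode. Per the file headers Cell Ranger 6.1.2 made them; per the submitters' processing notes the tools were Cell Ranger 7.1.0 and Seurat 5.0.3, and the genome mm10. These versions differ in whether intronic reads are counted by default, and which applied was not given in the sources used here, so UMIs of long or intron-rich genes may include unspliced RNA. The wild-type file held 10449 barcodes with 32797052 UMIs and the knock-in file 9000 with 25193274; 27 barcodes occurred in both.

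Barcodes below 500 UMIs or 200 genes, or with 10% mitochondrial UMIs or more, were left out. Scrublet (scanpy 1.11.5, expected rate 0.08, log-transformed) marked 240 and 250 doublets (2.47% and 2.91%), which were removed; this setting was chosen after the default had marked almost no knock-in cells. Cells were placed in classes by summed UMIs of marker genes. For B cells these included Cd79a, Cd79b, Ms4a1, Ebf1, Bank1 and Pax5 (a further marker is not reported here), at least 3 UMIs, with markers of 1 lineage only, and B stages were taken in the order B-1, activated, marginal zone, transitional, follicular. Thresholds were set after the cells had been seen. As they count UMIs, they pass deeper cells more readily, and the wild-type library was deeper. The activated, marginal zone and transitional stages also needed at least 20, 15 and 15 marker UMIs per 10000 UMIs of the cell.

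UMIs were summed per library and class and scaled to CPM. Intervals are at 95%: exact Poisson for sums, Clopper-Pearson for shares and conditional binomial for ratios. A library at 0 was placed at a floor of 3 counts. The ratio functions were tested on simulated data. The members and lists were chosen with earlier results of these data known. Values are given for Myc, Ddx21, the 3 members with the most UMIs in each role, the 5 lowest and 3 highest ratios in B cells, and the 3 largest ratios of each other list; further members are given by ratio. Gene positions and lengths came from GENCODE M21. The alternatives were stricter cell filters, doublets kept, thinning, TMM factors (edgeR 4.0.16), another total, equal weight of cells, other filters on low values, weighted classes and Leiden clusters; a gate 1 UMI higher and leaving out shared barcodes were added after the data were seen.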

Additional observations from a re-analysis of the deposited data

Results flagged for a closer look

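Nop10 and Bysl, as single genes, were lower in 1 class and higher in another by at least the threshold, each with a 95% counting interval that left out 0, among classes of at least 100 cells per library. The differences between the classes were not tested. Nop10, of the box H/ACA particle, had a log2 ratio of -0.5536 in marginal zone B cells (646 and 438 UMIs, wild-type first) and 0.4134 in mononuclear phagocytes (207 and 182 UMIs). Bysl, a small subunit factor, had a log2 ratio of -1.645 in CD8 T cells, from only 23 and 7 UMIs, and 0.4478 in follicular B cells (122 and 94 UMIs).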

How the results depend on the processing

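No paired analysis was possible because each genotype has 1 library. A median was read as unmoved when it stayed between the medians of the members' interval bounds, a wide range, so ranges follow for the main classes. In B cells the median ran from -0.23 to -0.12 over 15 alternatives, with 9 to 14 members lower against 13 as reported, and in all kept cells from -0.22 to -0.15 over 12 alternatives, with 8 to 14 lower against 12. Of the members between the thresholds, Bysl, Fbl, Ltv1, Nle1, Nop14, Nop16, Nop2 and Polr1c changed sign under at least 1 of them. All 13 members lower in B cells stayed below 0 under each of the 15. The filters on low values left the ratios unchanged, and TMM factors and the other total shifted all genes by a small constant. Those alternatives could therefore not have turned the sign of these 13 members. TMM factors left 9 of them past the threshold and thinning to 1000 UMIs left 8; the 5% mitochondrial limit, equal weight of cells and leaving out the activated stage left 11 each. Proliferating cells already lay outside the B class.

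Activated B cells changed direction with clusters, at a median of 0.04839 with 5 lower and 11 higher, against -0.36, 19 and 1; the cause was not tested. Members higher there numbered 3 with the 5% mitochondrial limit, 2 with doublets kept or TMM factors, 4 when thinned, and 0 with the other total, equal weight or without top cells. In marginal zone cells (20 lower, 1 higher) thinning gave 12 lower and 4 higher, 100 UMIs gave 13 lower, the 5% limit 3 higher and clusters 0 higher. In transitional cells (7 and 7) the 100 UMI filter gave 4 lower and 3 higher. In follicular cells (2 higher) clusters and the higher gate gave 4. In B cells without a stage (1 higher) thinning gave 4, clusters 3, and the 5% limit, other total, equal weight and higher gate 0. In all kept cells (0 higher) the 5% limit and thinning gave 1, and in B cells (0 higher) thinning gave 1.

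In T cells (6 lower, 4 higher) thinning gave 10 lower, TMM and the other total 1 higher and equal weight 2 higher; the median ran from -0.18 to 0.08. In NK cells (4 and 3) no filter gave 13 lower and 9 higher, the 100 UMI filter 1 and 0, clusters 7 and 5, and the higher gate 2 lower, where Nhp2 changed from 0.37 to -0.2726. The NK median ran from -0.11 to 0.17 over alternatives, and that of transitional cells from -0.05 to 0.07. In mononuclear phagocytes (7 and 4, median from -0.26 to 0.03, above 0 with clusters) the 5% limit, equal weight and higher gate gave 11 lower, thinning 3 lower and 1 higher, the 100 UMI filter 4 lower, the other total and equal weight 2 higher and no filter 8 higher. Plasma cells over B cells moved with thinning to -0.972 (wild-type) and -1.721 (knock-in), still below 0. These values rest on few UMIs and on the floor of 3 counts, so the move cannot be read as an effect of depth. Depth limits the NK class, with 517722 and 240205 UMIs in all, where members under 20 UMIs over both libraries were not compared.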
